A study of Arabidopsis thaliana with 6 samples.

Results

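The Sadhu elements SADHU1-1 (AT2TE16940), SADHU3-1 (AT3TE63935) and SADHU5-1 (AT4TE03410) are 3 retroposon insertions in the genome of Arabidopsis thaliana, followed here through 17 long-read transcript models out of 829 in the series. A model was taken when the authors' list paired it with one of these 3 transposable element (TE) identifiers, which gave 6 models for SADHU1-1, 8 for SADHU3-1 and 3 for SADHU5-1, at 3 of 344 TE loci. All 6 models of SADHU1-1 were also paired with a second identifier, AT2TE16945. The elements were chosen by their cluster reads in these same libraries, so their read numbers, ranks and ratios are given as a description, with no test. The reference names the overlapping genes AT2G10410, AT3G44042 and AT4G01525 as SADHU1-1, SADHU3-1 and SADHU5-1 and gives each the type pseudogene.

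Sadhu elements are short non-autonomous retroposons of plants. They encode no enzymes of their own, end in a stretch of A and are thought to have been copied from RNA by the machinery of other elements. SADHU1-1 and some of its relatives are known from earlier work for differing between natural accessions in whether they are methylated and silent or unmethylated and transcribed. DDM1 is a chromatin remodeller that keeps DNA methylation on TEs, RDR6 copies transcripts into double-stranded RNA, the source of small interfering RNAs, whereas Pol V is a plant-specific RNA polymerase whose transcripts guide DNA methylation to TEs.

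Full-length cDNA of polyadenylated RNA was read on an Oxford Nanopore MinION from young inflorescences, with flower buds of stages 1 to 12, of ecotype Columbia grown at 22 °C with 16 h of light. The 6 libraries were wild type (wt), ddm1, ddm1 rdr6, ddm1 polV and the ddm1 rdr6 polV triple mutant as replicates A and B. All mutant libraries therefore shared the loss of DDM1, and the labels name no alleles. Replicate B went through 13 PCR cycles and had a sequencing round of its own (round 2), deeper per the labels, whereas the other libraries were amplified with 14 cycles and sequenced together in round 1. TriZOL was used to extract the wt RNA and TriZOL LS for all mutants, so for wt the extraction and the genotype cannot be told apart. Each round 1 genotype had 1 library, and whether A and B came from separate plants is not stated in the labels. The files hold TE models and no other genes, so neither the tissue nor the mutations could be checked through marker genes.

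The unit of measurement was the cluster read, a read that was grouped with similar reads into a transcript model. The smallest cluster in the files held 10 reads, so "no model" means no cluster of 10 reads and not an absence of RNA. Taken as wt, ddm1, ddm1 rdr6, ddm1 polV, replicate A and replicate B, the libraries held 6, 48, 107, 145, 91 and 432 TE models, with 136, 1212, 3128, 4303, 2317 and 17106 cluster reads in sum. These sums are reads in TE models and not sequencing depth, which the files do not give. Intervals are 95% intervals and cover counting error only, not differences between plants or libraries. PCR copies of a molecule were not marked, so the intervals may be too narrow even for counting error.

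All 3 elements began with the same pair of words. The longest words common to the 3 transcribed spans were AGGACAATCGTTCC and CTCTCTTCTCTCTC, each of 14 nt and each found 1 time per element. They were defined from these elements and are shown because they mark the point where the full-length transcripts began. The windows below run 5′ to 3′ on the transcribed strand, from 80 bases before to 60 bases after the outermost start of any model (TAIR10), with the shared words in capitals.
SADHU1-1 start: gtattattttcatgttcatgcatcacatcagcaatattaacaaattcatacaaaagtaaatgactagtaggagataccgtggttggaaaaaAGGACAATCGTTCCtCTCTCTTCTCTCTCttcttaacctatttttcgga
SADHU3-1 start: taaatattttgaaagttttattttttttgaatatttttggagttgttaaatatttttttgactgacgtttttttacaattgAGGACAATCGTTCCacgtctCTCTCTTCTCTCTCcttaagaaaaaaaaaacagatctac
SADHU5-1 start: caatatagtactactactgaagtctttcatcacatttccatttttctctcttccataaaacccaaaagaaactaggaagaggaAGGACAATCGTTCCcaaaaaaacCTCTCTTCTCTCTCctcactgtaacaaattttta
They lie at chr2:4006960-4007099 on the minus strand, chr3:15813994-15814133 on the minus strand and chr4:660750-660889 on the plus strand. The first word began at base 12, 2 and 4 of the transcribed span in SADHU1-1, SADHU3-1 and SADHU5-1, and the second, made of C and T alone, at base 27, 22 and 27. Searched on the transcribed strand, the first word was in models of 3 of the 344 loci (0.872%), the elements themselves, and the second in models of 5 loci (1.45%).

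The first word was present in 12 of the 17 models, which together held 813 cluster reads. The 5 models without it held 67 reads and all started inside the element. They were the replicate B model of SADHU1-1, both replicate B models and the ddm1 polV model of SADHU3-1, and the smaller ddm1 rdr6 model of SADHU3-1. On both strands of the 5 nuclear chromosomes the word occurred 5 times, the other copies lying in AT2G00410 and AT5G44270, where no model was found. Near matches were looked for on both strands of the 13 other annotated Sadhu elements with 100 bases on each side. A match with 1 differing base was found on the annotated strand of 4 of them. Counted from base 1 at the annotated start, it began at base 19 in SADHU1-3, -3 in SADHU3-2, -5 in SADHU4-1 and 161 in SADHU4-2. A match with 2 differing bases began at base -3 in SADHU2-1 and 7 in SADHU9-1, while that of SADHU1-2 lay on the other strand. Of the 336 loci that are not Sadhu elements, searched in the same way, 0 had a match with at most 1 differing base and 2 (0.595%) one with at most 2. In the remaining 6 Sadhu elements the best match differed by 3 to 5 bases, as it did at most other loci.

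SADHU1-1 was the element with most cluster reads in wt and stayed among the 5 leading loci in every round 1 library. Its transcript was read 56 times in wt (42.3 to 72.7) and 60 times in ddm1 (45.8 to 77.2). The ddm1 rdr6 library gave 114 cluster reads (94.0 to 137), the ddm1 polV library 117 (96.8 to 140) and replicate A 98 (79.6 to 119). Replicate B gave 10 (4.80 to 18.4), the smallest cluster the files list. The other libraries thus lay between 56 and 117 reads, and replicate B lay below all of them. Its counting interval did not overlap theirs, but it does not cover reads in clusters under 10, which would not be listed. A lower number of cluster reads can mean fewer cells with the transcript or less RNA per cell, and these bulk libraries cannot separate the 2. Replicate B also differed in sequencing round, PCR cycles and depth, and its listed model was 246 nt long. Its low number can therefore not be assigned to the cells or their RNA.

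As a share of all TE cluster reads, SADHU1-1 made up 41.2% of wt, 4.95% of ddm1, 3.64% of ddm1 rdr6, 2.72% of ddm1 polV, 4.23% of replicate A and 0.0585% of replicate B. Across wt, ddm1, ddm1 rdr6, ddm1 polV and replicate A its ranks were 1 of 6 loci, 3 of 44, 4 of 92, 5 of 127 and 3 of 80. In replicate B it shared rank 305 of 334 with the 30 loci that had 10 reads, itself included. In wt the next locus below it was AT5TE72200 with 36 reads. In ddm1 its neighbours in rank were SADHU3-1 with 79 reads and AT2TE16800 with 55. In ddm1 rdr6 and in ddm1 polV the locus directly above was AT3TE67445, with 117 and 177 reads. The Poisson intervals of SADHU1-1 and AT3TE67445 overlap in ddm1 rdr6, so their order there is within counting error.

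SADHU3-1 had no model in wt and was the second locus of ddm1 and of ddm1 rdr6. It had 79 cluster reads in ddm1 (62.5 to 98.5) and 159 in ddm1 rdr6 (135 to 186), the latter in models of 142 and 17 reads. In ddm1 polV it had 14 (7.65 to 23.5). Replicate A gave 85 (67.9 to 105), in models of 65 and 20 reads, and replicate B gave 26 (17.0 to 38.1), in models of 16 and 10 reads. The ddm1 polV library therefore lay lowest of the 4 mutant libraries of round 1, and the order of ddm1 and replicate A was within counting error.

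SADHU3-1 took 6.52% of the TE cluster reads of ddm1, 5.08% of those of ddm1 rdr6, 0.325% of those of ddm1 polV, 3.67% of those of replicate A and 0.152% of those of replicate B. Its rank was 2 of 44 loci, 2 of 92, 75 of 127, 5 of 80 and 138 of 334 in the same order, tied with 8 loci in ddm1 polV and 7 in replicate B, itself included. In ddm1 and in ddm1 rdr6 the locus above it was AT4TE16900, with 186 and 413 reads. SADHU3-1 was thus among the leading loci in the libraries ddm1, ddm1 rdr6 and replicate A, and near or below the middle of the list in the other mutant libraries.

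SADHU5-1 had a model in 3 libraries, each with few reads. It had 11 cluster reads in wt (5.49 to 19.7), 25 in ddm1 rdr6 (16.2 to 36.9) and 26 in replicate B (17.0 to 38.1), and no model in ddm1, ddm1 polV or replicate A. Replicate A and replicate B of the triple mutant thus differed, but a model in B alone was common. Replicate B held models at 334 loci and replicate A at 80. Presence of a SADHU5-1 model can therefore not be read by genotype. The 11 reads in wt sit 1 above the smallest cluster listed, so presence or absence of a model there is within counting error of the limit. Its share was 8.09% of wt, 0.799% of ddm1 rdr6 and 0.152% of replicate B, and its rank was 3 of 6 (4 loci tied), 38 of 92 and 138 of 334.

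**Figure D1:**
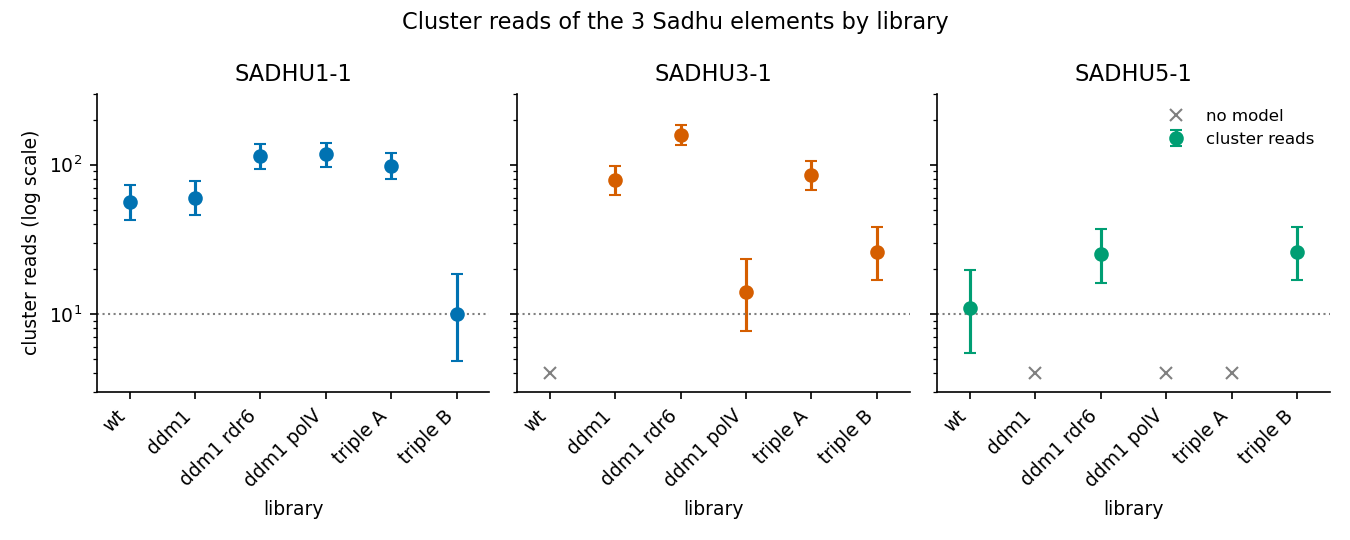
Cluster reads (y axis, log scale) of each element in the 6 libraries (x axis; triple A and triple B are the replicates of ddm1 rdr6 polV), as points with exact Poisson 95% intervals; crosses mark libraries with no model and the dotted line the smallest cluster of 10 reads. SADHU1-1 stands between 56 and 117 reads in 5 libraries and at 10 in replicate B, SADHU3-1 is at 14 in ddm1 polV, and SADHU5-1 has a model in 3 libraries.

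The 3 elements together took 49.3% of the TE cluster reads of wt, 11.5% of ddm1, 9.53% of ddm1 rdr6, 3.04% of ddm1 polV, 7.90% of replicate A and 0.362% of replicate B. The wt share rests on 67 reads of 136. The sets of libraries with a model differed between the elements: 3 of 344 loci had a model in all 6 libraries as SADHU1-1 did, 28 had the set of SADHU3-1, and SADHU5-1 was alone in its set.

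Between ddm1 and ddm1 rdr6, both elements with a model had more reads in the double mutant, as did many other loci. SADHU1-1 had 1.90 times (1.38 to 2.64) and SADHU3-1 2.01 times (1.53 to 2.67) as many cluster reads in ddm1 rdr6, against a median ratio of 1.61 over the 42 loci with a model in both libraries. A ratio of at least 2 was reached by 40.5% of these loci, and 2.38% had at least 2-fold fewer reads. The 1 element past 2-fold, SADHU3-1, is therefore near the background share. Relative to all TE reads of each library the direction was the opposite, with a ratio of shares of 0.736 for SADHU1-1 and 0.780 for SADHU3-1.

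Between ddm1 and ddm1 polV the elements went separate ways. SADHU1-1 had 1.95 times (1.42 to 2.71) as many cluster reads in ddm1 polV, close to the median ratio of 2.20 over 40 shared loci. SADHU3-1 had 5.64-fold fewer (ratio 0.177, 0.0927 to 0.315), the lowest ratio of the 40. Background shares were 57.5% of loci with at least 2-fold more reads in ddm1 polV and 7.5% with at least 2-fold fewer, the latter being 3 loci with SADHU3-1 among them. SADHU3-1 was lower on the share scale too, with a ratio of shares of 0.0499, while SADHU1-1 changed direction there, at 0.549.

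Between ddm1 polV and replicate A, which adds rdr6, SADHU3-1 stood at the other end of the list. Replicate A had 6.07 times (3.43 to 11.6) as many SADHU3-1 reads as ddm1 polV, the highest ratio of 64 shared loci, whose median was 0.690. Of those loci 14.1% had at least 2-fold more and 31.2% at least 2-fold fewer reads in replicate A. SADHU1-1 had 0.838 times as many (0.634 to 1.10), an interval that includes 1. This contrast shares the ddm1 polV library with the previous one, so the low value of SADHU3-1 in ddm1 polV enters both. Taking replicate B instead gave a SADHU3-1 ratio of 1.86 (0.935 to 3.85), against a median of 2.53 over 120 loci.

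Between ddm1 rdr6 and replicate A, SADHU1-1 had a ratio of 0.860 (0.649 to 1.14) and SADHU3-1 one of 0.535 (0.406 to 0.700), against a median of 0.800 over 57 shared loci. Neither passed 2-fold, which 8.77% of loci did upward and 21.1% downward. The lower SADHU3-1 reads of replicate A thus lie near the lower quartile of the shared loci, 0.547.

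SADHU1-1 and SADHU3-1 had fewer reads in replicate B of the triple mutant than in replicate A, against the trend of most loci. Replicate B had more reads than replicate A at most of the 80 loci with a model in both, with a median ratio of 4.50, and 82.5% of loci had at least 2-fold more. At least 2-fold fewer reads in replicate B were found at 6.25%, which is 5 loci, and SADHU1-1 and SADHU3-1 were among them. SADHU1-1 had 98 reads in A and 10 in B, 9.80-fold fewer (ratio 0.102, 0.0474 to 0.196), the lowest ratio of the 80. SADHU3-1 had 85 and 26, 3.27-fold fewer (ratio 0.306, 0.189 to 0.479), the fourth lowest. SADHU5-1 had no model in A and 26 reads in B. That was common, since replicate B had models at 334 loci, of which 80 had one in A too. The replicates differ in sequencing round, PCR cycles and depth, and the part of each in these differences cannot be told apart.

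Against the double mutants the elements stood apart in replicate B. SADHU1-1 had the lowest ratio of all shared loci against ddm1 rdr6, at 0.0877, and against ddm1 polV, at 0.0855. The median ratios were 3.23 over 89 loci and 2.53 over 120. In the first pair 68.5% of loci had at least 2-fold more reads in replicate B and 6.74% at least 2-fold fewer. In the second pair the shares were 61.7% and 3.33%. SADHU3-1 had a ratio of 0.164 against ddm1 rdr6, the second lowest, but more reads than in ddm1 polV, with the ratio of 1.86 given above. SADHU5-1 had a ratio of 1.04 (0.577 to 1.88) against ddm1 rdr6. These pairs share the replicate B library with the pair of replicates and are not independent of it.

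In wt and ddm1 SADHU1-1 differed by less than counting error, with a ratio of 1.07 (0.732 to 1.57) over reads of 60 and 56. The 2 libraries shared 3 loci, so a background share was not computed. The share of TE reads was 0.120 times that of wt, as 44 loci had models in ddm1 against 6 in wt.

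The transcripts of all 3 elements were short and unspliced. All 17 models had a single exon and measured 246 to 979 nt, with a median of 914 nt, and 16 of them measured 825 nt or more. Among all TE models the single-exon share was 83.3% in wt and 42.1% to 62.5% in the mutant libraries.

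SADHU1-1 was transcribed from the minus strand of chromosome 2, and 5 libraries gave nearly the same molecule. Models of wt, ddm1 rdr6 and ddm1 polV started at 4007019, and those of ddm1 and replicate A 2 bases further in, at 4007017. All ended at 4006100, except the wt model at 4006099, so their lengths were 918 to 921 nt. The start lay 25 bases downstream of the annotated start of AT2G10410 (4005995 to 4007044). In replicate B the single model ran from 4006345 to the same end at 4006100. It was 246 nt long and started 674 bases inside the outermost start. The last 18 bases of the transcribed span overlap the pseudogene AT2G10405 on the opposite strand.

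The replicate B model of SADHU1-1 is printed whole, since it is the 1 model listed for the element in that library; longer reads in clusters under 10 would not be listed. AATAAA, the canonical poly(A) signal, is in capitals.
SADHU1-1 model of replicate B: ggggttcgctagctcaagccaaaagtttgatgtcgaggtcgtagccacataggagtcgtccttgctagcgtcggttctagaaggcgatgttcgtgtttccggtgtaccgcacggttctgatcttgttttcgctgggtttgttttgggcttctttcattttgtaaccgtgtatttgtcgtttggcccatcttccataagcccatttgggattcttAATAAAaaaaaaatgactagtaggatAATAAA
This stretch (chr2:4006100-4006345, minus strand) is the 3′ part of the transcript of the other libraries, and its last 6 bases are the second AATAAA.

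SADHU3-1 used several starts and several ends on the minus strand of chromosome 3. The main models of ddm1, ddm1 rdr6 and replicate A, and the smaller model of replicate A, began at 15814053, 3 bases inside the annotated start of AT3G44042 (15813075 to 15814056). The smaller ddm1 rdr6 model started 30 bases inside, the ddm1 polV model 64 bases inside, and the replicate B models 66 and 91 bases inside. The libraries with the lowest SADHU3-1 reads, ddm1 polV and replicate B, were thus those in which no model reached the outer start. Among 40 loci compared between ddm1 and ddm1 polV, 5% (2 loci) had a main model that started at least 50 bases further downstream in ddm1 polV, SADHU3-1 being 1 of them.

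The 3′ ends of SADHU3-1 fell into a near and a far group. Near ends lay at 15813152 in the main ddm1 rdr6 model, at 15813138 in the smaller replicate B model, and at 15813140 in ddm1, ddm1 polV and the main model of replicate A. The far end at 15813075, identical to the annotated end, was reached by 1 model in each of ddm1 rdr6, replicate A and replicate B. The far end took 0 of 79 reads in ddm1, which allows up to 4.56% by the Clopper-Pearson interval. It took 10.7% of 159 reads in ddm1 rdr6 (6.35 to 16.6). Replicate A had 23.5% of 85 reads there (15.0 to 34.0), and replicate B 61.5% of 26 (40.6 to 79.8). In ddm1 polV it took 0 of 14, which allows up to 23.2%. A far-end cluster of under 10 reads would not have been listed, so the zeros of ddm1 and ddm1 polV are also limited by that minimum.

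The window of the SADHU3-1 ends is shown with the 65 bases between the near end at 15813140 and the far end in capitals.
SADHU3-1 3′ ends: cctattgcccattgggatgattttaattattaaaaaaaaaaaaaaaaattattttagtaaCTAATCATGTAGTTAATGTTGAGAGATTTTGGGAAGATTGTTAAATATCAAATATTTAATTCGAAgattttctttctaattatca
The near end lies just beyond a run of 17 A in the genome (chr3:15813055-15813199, minus strand). The last 20 bases before it held 12 A at 15813140 and 18 A at 15813152, against 9 A before the far end. No AATAAA was found on the transcribed strand within the last 50 bases of any SADHU3-1 end. Over all 344 loci that word was found in the last 50 bases of 16.0%, and the median was 7 A in the last 20.

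SADHU5-1 had the same ends in all 3 libraries. Its models ran on the plus strand of chromosome 4 from 660833, or 660830 in replicate B, to 661723, and were 891 or 894 nt long. The start lay 20 bases downstream of the annotated start of AT4G01525 (660810 to 661698), and the end 25 bases beyond its annotated end. The ends of SADHU1-1 and SADHU5-1 are shown with AATAAA in capitals, from 70 bases before to 20 bases after the last transcribed base.
SADHU1-1 3′ end: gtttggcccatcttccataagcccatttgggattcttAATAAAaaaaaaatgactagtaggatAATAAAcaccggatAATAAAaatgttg
SADHU5-1 3′ end: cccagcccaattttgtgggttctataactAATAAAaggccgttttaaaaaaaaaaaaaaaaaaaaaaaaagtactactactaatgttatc
They lie at chr2:4006079-4006168 (minus strand) and chr4:661654-661743 (plus strand). SADHU1-1 held the word 2 times in its last 50 transcribed bases. SADHU5-1 held it 1 time, and its last 20 transcribed bases were all A, part of a genomic run of 25 A. At least 15 A in the last 20 bases were found at 8.43% of all loci. Whether reads ended at a poly(A) tail or were primed within such a run of A was not tested.

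**Figure D2:**
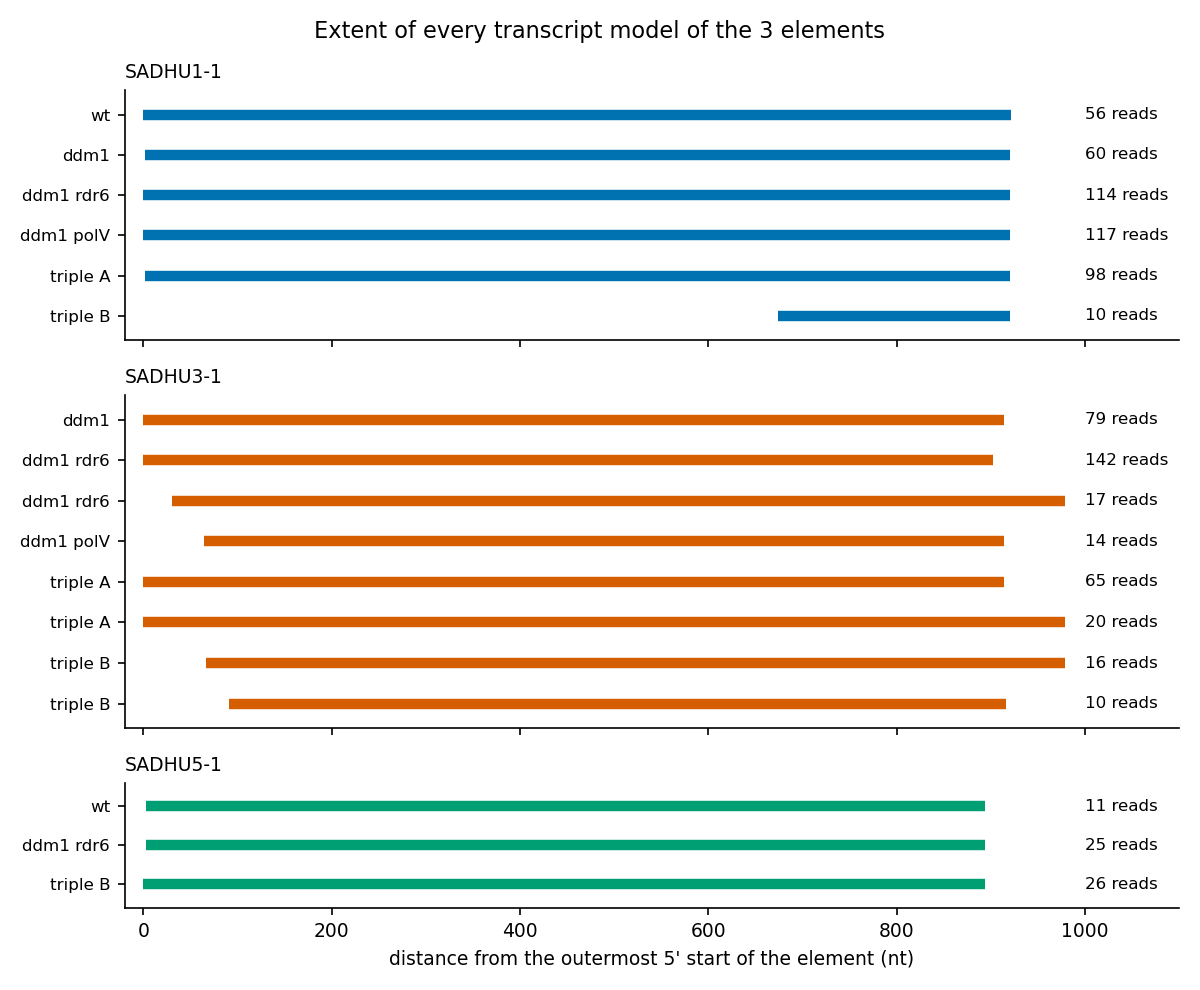
Each bar is 1 of the 17 transcript models, drawn by its distance in nt from the outermost 5′ start of its element (x axis) and ordered by library (y axis; triple A and triple B are the replicates of ddm1 rdr6 polV), with its cluster reads at the right. SADHU1-1 spans 918 to 921 nt in 5 libraries and 246 nt in replicate B, SADHU3-1 starts 64 to 91 nt inside in ddm1 polV and replicate B, and SADHU5-1 has one shape.

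The 5 loci that started at least 50 bases further downstream in replicate B had fewer reads there than in replicate A. Of 79 loci whose main models could be compared between the replicates, 6.33% (5 loci) started at least 50 bases further downstream in replicate B, a distance chosen after the data were seen. They were AT1TE54480.2 with 1348 bases, SADHU1-1 with 672, AT1TE54480 with 527, SADHU3-1 with 66 and SADHU8-1 (AT1TE62360) with 65. AT1TE54480 and AT1TE54480.2 are separate loci with the same TE identifier. A start at least 50 bases further upstream in replicate B was found at 14 of the 79 loci. Of the 5 loci with a later start, 3 are annotated Sadhu elements. Replicate A had a model for 4 Sadhu elements. The other of these, SADHU7-1, went the opposite way, with a shift of -208 bases, which is upstream. It had 14 reads in A and 15 in B. Of the 5 loci with at least 2-fold fewer reads in replicate B, 4 had a downstream shift of at least 50 bases. Among the 74 others 1 did, SADHU8-1, with 12 reads in A and 10 in B. The remaining locus with at least 2-fold fewer reads, AT4TE10210, started 127 bases further upstream in replicate B. The part of depth, PCR cycles or RNA integrity in these later starts was not tested.

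**Figure D3:**
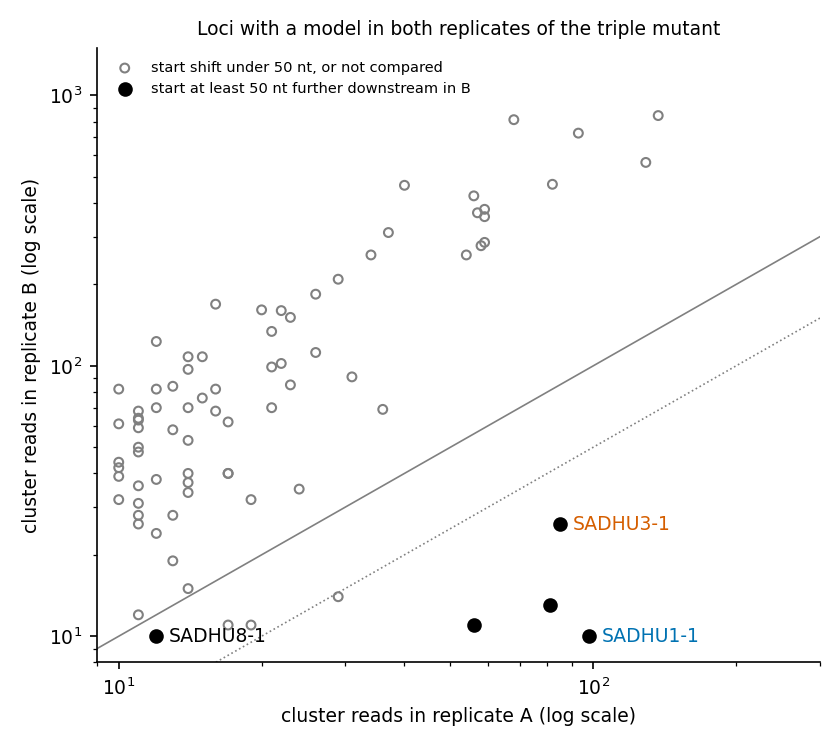
Cluster reads of the 80 loci with a model in both triple-mutant replicates, replicate A on the x axis and replicate B on the y axis, both on log scales. The solid line marks equal reads and the dotted line 2-fold fewer in B; filled points are the 5 loci whose main model starts at least 50 nt further downstream in B, and 4 of them lie below the dotted line, SADHU1-1 and SADHU3-1 included.

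The loci most like each element across libraries were found by the mean absolute difference of log2 shares of TE reads, each centred on the locus's own mean. For SADHU1-1 the closest of 31 candidates were AT4TE10210 (difference 0.62), AT1TE54480 (0.94) and AT4TE16945 (1.14), over the 5 mutant libraries. AT4TE10210 had 22, 59, 74, 29 and 14 cluster reads in ddm1, ddm1 rdr6, ddm1 polV and the replicates A and B. In wt these 3 loci lacked a model. For SADHU3-1 the closest of 27 candidates were AT1TE54480 (1.02), AT4TE10210 (1.23) and AT1TE65060 (1.33). These differences are above 1 on the log2 scale, so no locus ran close to SADHU3-1. AT1TE54480 had 12, 62, 27, 81 and 13 reads in the same libraries, so its ddm1 polV value was above its ddm1 value, unlike that of SADHU3-1. For SADHU5-1 the closest of 9 candidates, over 2 libraries, were AT3TE50025 (0.03), SADHU3-2 (AT3TE60310, 0.20) and AT2TE12510 (0.26), each with a model in ddm1 rdr6 and replicate B.

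Together the 3 elements had more cluster reads than the rest of the Sadhu family in every library but replicate B. They were chosen by their cluster reads in these same libraries, so this is a description and no independent result. The annotation names 16 Sadhu elements, of which 8 had a model on their own strand and 8 had none, and 0 antisense models were found. Besides the 3 elements, SADHU8-1 had 18 reads in the ddm1 polV library and 12 and 10 in the replicates A and B. SADHU7-1 had 10 in ddm1 rdr6 and 14 and 15 in the replicates, and SADHU3-2 had 32 in ddm1 rdr6 and 44 in replicate B. SADHU4-1, with 22 reads, and SADHU5-2, with 13, had models in replicate B alone. A model was found for 2 Sadhu elements in wt and 2 in ddm1, for 5 in ddm1 rdr6, for 3 in ddm1 polV, and for 4 and 8 in the replicates A and B. In replicate B, SADHU3-2 with 44 reads stood above SADHU3-1 and SADHU5-1 with 26 each.

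**Figure D4:**
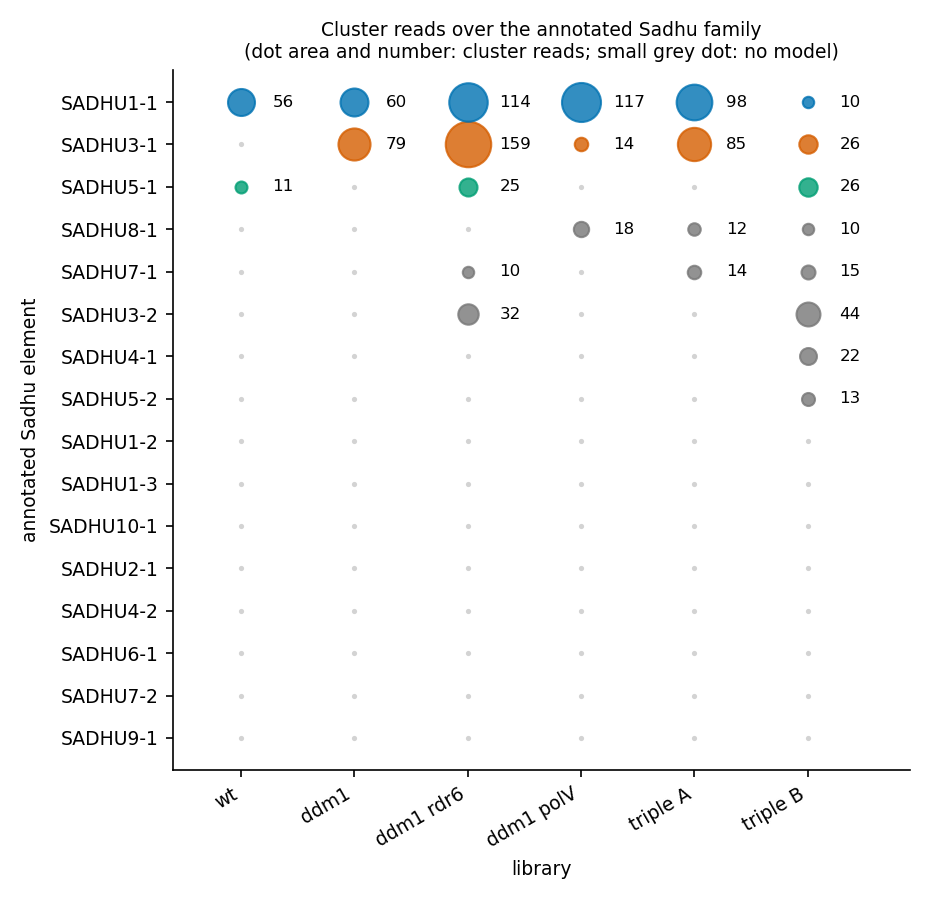
Cluster reads of the 16 annotated Sadhu elements (y axis) in the 6 libraries (x axis; triple A and triple B are the replicates of ddm1 rdr6 polV), with dot area and printed number giving the reads and small grey dots marking no model. SADHU1-1 or SADHU3-1 holds the highest value in each mutant library of round 1, and replicate B has 8 elements with a model and none above 44 reads.

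The elements differed in how unique their sequences were. SADHU1-1 was closest to SADHU1-2, with 70.8% identity over 788 aligned columns, and SADHU3-1 to SADHU3-2, with 79.8% over 912. SADHU3-1 also matched chr2:9338806-9339166 with 84.0% identity over 362 columns and chr5:761916-762066 with 93.4% over 151. SADHU5-1 matched chr1:6262614-6263382, in AT1G18193, with 98.7% identity over 769 columns, of which 10 were not identical, and chr4:410383-411018, in AT4G00953, with 93.7% over 648. The first match covers bases 124 to 892 of the SADHU5-1 span. No model was found at either place. Reads of SADHU5-1 could have been split between such copies by the alignment, so its cluster reads are uncertain. How reads with several matches were treated is not given in the sources used here.

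Short direct repeats lay near both transcribed ends of all 3 elements. Retroposons are known to leave such repeats when they insert, so the pairs are shown; that these words arose in that way was not tested. The longest word shared by the stretches around both ends is in capitals in each pair.
SADHU1-1 5′ side: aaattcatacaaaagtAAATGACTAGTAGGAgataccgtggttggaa
SADHU1-1 3′ side: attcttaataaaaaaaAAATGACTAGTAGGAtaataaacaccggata
SADHU3-1 5′ side: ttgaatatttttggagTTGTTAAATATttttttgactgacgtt
SADHU3-1 3′ side: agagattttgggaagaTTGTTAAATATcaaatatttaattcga
SADHU5-1 5′ side: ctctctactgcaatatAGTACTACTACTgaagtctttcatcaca
SADHU5-1 3′ side: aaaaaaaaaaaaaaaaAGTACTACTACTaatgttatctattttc
The repeat measured 15 nt in SADHU1-1, 11 nt in SADHU3-1 and 12 nt in SADHU5-1, against a median of 7 nt for the same search over all 344 loci. A repeat as long was found at 1.16%, 3.20% and 2.62% of loci. It ended 8, 27 and 62 bases before the outermost start of SADHU1-1, SADHU3-1 and SADHU5-1, in that order. On the 3′ side the SADHU5-1 copy began with the last A of the run of 25. In SADHU1-1 and SADHU3-1 it lay inside the transcribed span, and the annotated elements run past it, and in SADHU3-1 it lay between the near and the far end. The near end of SADHU3-1 is therefore before the repeat, and the far end beyond it.

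The spans held more CG sites than most TE transcripts. GC content was 50.6% in SADHU1-1, 43.6% in SADHU3-1 and 47.7% in SADHU5-1, against a median of 40.2% and quartiles of 37.7% and 43.6% over the main models of all loci. CG sites, the main target of maintenance DNA methylation, numbered 5.21, 4.80 and 5.70 per 100 nt, against a median of 2.98 and an upper quartile of 3.83. The longest open reading frame had 39, 45 and 56 codons, against a median of 68 codons over all loci. Transcript length was not matched in this comparison, and its part in the difference was not tested. Methylation itself was not measured in these files.

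The 3 elements lie in unlike surroundings. Protein-coding genes covered 10.5% of the 500 kb bin that holds SADHU1-1, 26.6% of that of SADHU3-1 and 58.5% of that of SADHU5-1. Within 2 kb, SADHU1-1 had the pseudogenes AT2G10400, AT2G10420 and AT2G10430. SADHU3-1 had no annotated gene but a replicate B model of AT3TE63950 with 19 reads, which starts 683 bases away on the plus strand and points away from it. SADHU5-1 had NAC067 (AT4G01520), which encodes a transcription factor of the NAC family, 1652 bases away, and the pseudogene AT4G01530.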

How the data were processed

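Per the labels, poly(A) RNA (50 ng per library) was reverse transcribed, PCR-amplified and sequenced on a MinION. Per the submitters' processing notes, reads were aligned with minimap2 to TAIR10. The deposited model files name pinfish as their source, and the number ending each deposited model name was read here as the count of reads in its cluster, which the files do not state. The sources used here give no versions, no cluster settings and no rule for pairing models with TEs. The deposited files used here hold no library totals.

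Same-strand models sharing 1 or more exonic bp were merged into loci, and a locus's cluster reads were summed over its models in a library. The coordinates were checked against TAIR10.1 (RefSeq), where 501 of 509 introns (98.4%) were GT-AG. Sequences and gene names came from that build. Intervals are exact Poisson for reads, Clopper-Pearson for shares and exact conditional binomial for ratios, computed with Python 3.11.15 and scipy 1.17.1. No test was made, because the members and lists were chosen with earlier results of these data known. Background shares count loci with a model in both libraries past 2-fold. Named loci were the 3 elements, up to 3 loci closest in pattern to each, their neighbours in rank and genes or models within 2 kb. Copies were searched with BLAST+ 2.17.0 (e-value 1e-10). Only the fold counts and the merging of models into loci were checked on made-up data. The simulated loci had far more reads than loci here, and changes larger than 2-fold. Calls near 2-fold at few reads were therefore not checked, nor were the other steps. Other totals, ranks, scalings and model choices were tried as alternatives.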

Additional observations from a re-analysis of the deposited data

Results flagged for a closer look

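SADHU1-1 is flagged because the same added mutation went with more reads in one background and fewer in the other. Adding rdr6 to ddm1 went with 1.90 times the cluster reads (60 to 114), whereas adding it to ddm1 polV went with 0.838 times in replicate A (117 to 98) and 0.0855 times in replicate B (117 to 10). Adding polV to ddm1 went with 1.95 times the reads (60 to 117), whereas adding it to ddm1 rdr6 went with 0.860 times in replicate A (114 to 98) and 0.0877 times in replicate B (114 to 10). The difference was not tested, with 1 library in each of the other groups, and both patterns rest on the same 5 libraries. The replicate A ratios have counting intervals that include 1, and the replicate B ratios rest on the 246 nt model. The median shared locus had the same pattern, with ratios of 1.61 from ddm1 to ddm1 rdr6 and 0.690 from ddm1 polV to replicate A, and of 2.20 from ddm1 to ddm1 polV and 0.800 from ddm1 rdr6 to replicate A. Centred on these medians, SADHU1-1 had 1.18 and 1.21 for rdr6, and 0.887 and 1.07 for polV. On shares of TE reads the ratios were 0.736 and 1.56 for rdr6, and 0.549 and 1.16 for polV. The pattern in round 1 is therefore not particular to SADHU1-1. For neither mutation was it seen on the centred scale or on shares. For polV on the centred scale, and for both mutations on shares, the directions were the opposite.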

How the results depend on the processing

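Scaling decided most ratios. On shares of TE reads, SADHU3-1 reversed from ddm1 to ddm1 rdr6 (0.780). On that scale SADHU1-1 had 0.120 from wt to ddm1, 0.736 from ddm1 to ddm1 rdr6, 0.549 from ddm1 to ddm1 polV, 1.16 from ddm1 rdr6 to replicate A, 1.56 from ddm1 polV to replicate A and 0.0138 from A to B. SADHU3-1 had 0.0499 from ddm1 to ddm1 polV, 0.722 from ddm1 rdr6 to replicate A and 0.0414 from A to B. Centred on the median ratio, SADHU1-1 had 1.18 from ddm1 to ddm1 rdr6, 0.887 to ddm1 polV, 1.21 from ddm1 polV to replicate A and 0.0227 from A to B. SADHU3-1 then had 1.25 from ddm1 to ddm1 rdr6, 0.0806 to ddm1 polV and 0.0679 from A to B. With replicate B in place of A, SADHU1-1 ratios were 0.0877 and 0.0855 from ddm1 rdr6 and ddm1 polV, and SADHU3-1 ratios 0.164 and 1.86. SADHU3-1 was lower in ddm1 polV than in ddm1, and both elements lower in B than in A, on every scale tried. At 4-fold, 0 elements were higher in ddm1 rdr6 than in ddm1, and 1 was lower in B than in A. Counting overlapping models moved 0 of 14 read numbers, and counting the largest model alone moved 2 of 14. Ranks moved at 6 of 14 among models and at 9 of 14 with single-exon models alone, SADHU3-1 in ddm1 polV from 75 to 37. Shares moved at 9 of 14 without the leading loci in the total, at 8 of 10 with models of at least 20 reads and at 12 of 14 with single-exon models. In wt, without the leading loci, SADHU1-1 had 83.6% in place of 41.2% and SADHU5-1 50% in place of 8.09%. As wt had 6 loci, hardly any other locus was left in that total, so these values are no check of the wt shares. In ddm1 polV SADHU1-1 had 6.37% in place of 2.72% with single-exon models. By Euclidean distance of reads, 2 of the 3 closest loci were shared for SADHU1-1 and for SADHU3-1, and all 3 for SADHU5-1. With start shifts of 20 or 100 bases, chosen after seeing the data, 4 and 3 of the 5 loci lower in B had one, against 3 and 0 others. The ratios move with the scale because TE cluster reads per library summed to 136 to 17106. Single libraries and the minimum of 10 reads limit every statement. No paired analysis was possible because each round 1 genotype had 1 library.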
